A study of Rattus norvegicus with 50 samples.

Results

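Mitosis genes encode the proteins that carry a cell through its division, from the cyclins that trigger it to the motors that part the daughter cells. A list of 46 such genes was followed through the lungs of rats that inhaled nickel subsulfide, and 42 of them were measured, out of 13438 genes on the array with a probe set of their own. Nek2, Ndc80, Tpx2 and Ncapg were not measured. For each gene the probe set with the highest mean over the 50 arrays was used. The list was set by gene function and not by the values, but it was drawn up with earlier results from these arrays known.

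The animals were male Fischer 344 rats, about 7 to 8 weeks old when they were received. They inhaled an aerosol of nickel subsulfide (Ni3S2), a poorly soluble nickel compound that is a lung carcinogen in rats, for 6 hours daily on 5 days weekly. The target concentrations, from the highest down, were 0.60, 0.15, 0.08 and 0.04 mg/m3, or about 0.44, 0.11, 0.06 and 0.03 mg of nickel per m3, and the controls were kept at 0 mg/m3. The animals were exposed on 5 days in 1 week or on 20 days over 4 weeks, and each time had controls of its own. Of the 13 rats in each of the 10 groups, 5 went to lavage and histology and 8 to expression, and the 5 of these 8 with the best RNA quality were arrayed, so n = 5 in every group. The tissue was dissected from the distal airways and alveoli of the right caudal lobe and is a mixture of cell types. The mean level of 13 alveolar type 2 cell genes lay between 11.10 and 11.87 (log2 intensity) on all 50 arrays, and that of 7 club cell genes between 9.95 and 10.94. Muscle genes varied more, from 7.35 to 9.61 for 10 smooth muscle genes, from 4.69 to 9.19 for 11 heart muscle genes and from 3.73 to 10.48 for 7 skeletal muscle genes. In such a mixture, a change in the number of dividing cells and a change in RNA per dividing cell cannot be told apart.

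A cell enters mitosis when cyclin B joins the kinase Cdk1, and leaves it when the anaphase-promoting complex marks cyclin B and securin for destruction. In between, the chromosomes condense, the spindle attaches to their kinetochores, and a checkpoint holds the cell until each is attached. Most of these genes are transcribed only late in the cycle and are silent in resting tissue, so in adult lung, where few cells divide, their mRNA is commonly used as a sign of proliferation. Their shared timing is known to be set by the DREAM and MuvB complexes, which bind a cell-cycle homology region, and by the factor NF-Y, which binds CCAAT boxes.

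These promoter elements are shown here because the members moved together in what follows. The stretch runs from 150 bases before to 10 bases after the start of the gene in the GRCr8 assembly, 5′ to 3′ on the gene's strand, from RefSeq. Capitals mark the CCAAT box. They also mark TTTGAA, a form of the cell-cycle homology region, and a variant of it, TTTAAA. Both strands were searched, so a CCAAT box may read ATTGG here. In the same way the homology region may read TTCAAA. The variant TTTAAA is its own reverse complement, and in Mki67 a TTTGAA overlaps an ATTGG.
Ccnb1: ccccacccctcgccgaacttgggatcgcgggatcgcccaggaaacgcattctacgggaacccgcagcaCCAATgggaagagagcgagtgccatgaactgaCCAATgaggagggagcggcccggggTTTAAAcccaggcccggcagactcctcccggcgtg
Ccnb2: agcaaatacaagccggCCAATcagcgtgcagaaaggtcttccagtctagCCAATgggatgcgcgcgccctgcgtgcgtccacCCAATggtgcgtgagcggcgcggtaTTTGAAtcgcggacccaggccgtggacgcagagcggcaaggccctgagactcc
Cdk1: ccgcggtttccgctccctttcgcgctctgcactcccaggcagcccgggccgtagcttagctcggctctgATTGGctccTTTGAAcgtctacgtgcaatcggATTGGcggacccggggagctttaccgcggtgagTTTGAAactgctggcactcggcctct
Cks2: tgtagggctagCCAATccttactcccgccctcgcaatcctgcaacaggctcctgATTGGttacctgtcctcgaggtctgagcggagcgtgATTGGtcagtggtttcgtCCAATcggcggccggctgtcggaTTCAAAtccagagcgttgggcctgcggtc
Top2a: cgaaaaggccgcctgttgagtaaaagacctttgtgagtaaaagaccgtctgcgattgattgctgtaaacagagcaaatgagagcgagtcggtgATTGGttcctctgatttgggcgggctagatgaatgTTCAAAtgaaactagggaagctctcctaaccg
Mki67: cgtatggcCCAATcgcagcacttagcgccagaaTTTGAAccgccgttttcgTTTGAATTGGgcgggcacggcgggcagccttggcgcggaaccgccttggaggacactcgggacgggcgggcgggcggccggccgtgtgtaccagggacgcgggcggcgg
The stretches lie at chr2:33655216-33655375 (minus strand) for Ccnb1, chr8:79981649-79981808 (minus) for Ccnb2, chr20:19265143-19265302 (plus) for Cdk1, chr17:13727510-13727669 (minus) for Cks2, chr10:84473084-84473243 (minus) for Top2a and chr1:199952584-199952743 (minus) for Mki67. In Ccnb1 and Ccnb2, which encode B-type cyclins, the CCAAT boxes stand in a row and the TTTAAA or TTTGAA follows them towards the start. Both cyclins share this layout with Cks2, whose product binds Cdk1, while Top2a holds a single ATTGG and a single TTCAAA.

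The same letters were counted over windows of 300 bases, from 250 before to 50 after the start, for the 39 listed genes with an entry. TTTGAA or TTTAAA was found in 36 of the 39 (92.3%), against 29.7% of 27457 genes. CCAAT was found in 30 (76.9%, against 39.6%), and at 2 or more places in 23 (59.0%, against 12.2%). Both kinds occurred together in 28 (71.8%, against 12.8%). For TTTGAA or TTTAAA starting within 60 bases before to 50 after the start, the figure was 28 (71.8%, against 10.6%). Motifs of the E2F kind were rarer: TTGGCGC stood in 3 of the 41 windows of the listed genes (7.32%, against 2.26% of 33469 windows) and TTCCCGC in 2 (4.88%, against 4.21%). Melk, the member with the largest changes below, held neither CCAAT nor TTTGAA or TTTAAA in its window, and Kif4a, which did not rise in any comparison with controls, held CCAAT at 2 places and a homology region form at 1. A match is a description of letters, and these windows hold no measurement of binding.

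After 4 weeks, mitosis genes rose at 0.15 and 0.60 mg/m3 and at neither lower concentration. Changes are log2 differences ± the standard error of limma's model over all groups, and calls required an adjusted p below 0.05 (Benjamini-Hochberg over the 13438 genes). At 0.60 mg/m3, 33 of the 42 members were higher than in controls and 1 was lower, where 9.47% of all genes tested were called higher, 7.9% lower and 17.4% in either direction. At 0.15 mg/m3, 29 were higher and 0 lower, where 1.92% of all genes were called higher, 1.58% lower and 3.5% in either direction. The median change of the members was 0.92 at 0.60 mg/m3 and 0.83 at 0.15 mg/m3, and that of all genes tested was -0.00 and -0.01. On 33 members the 5 arrays of 0.15 mg/m3 all lay above the 5 controls, as they did for 4.61% of all genes, and on 32 members those of 0.60 mg/m3 did so, against 10.5% of all genes. Both concentrations are compared with the same controls.

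At 0.08 mg/m3 for 4 weeks limma called 0 members in either direction, where 5.67% of all genes were called higher, 2.87% lower and 8.54% in either direction. All 5 arrays lay above the controls for 2 members, Cdk1 and Cdca8, against 3.99% of all genes. The median change of the members was 0.13 and 4 had an unadjusted p under 0.05. At 0.04 mg/m3 limma called 0 members higher, with 8.29% of all genes higher, and 2 lower, with 4.61% of all genes lower. Those were Kif4a, a chromosome-bound motor (-0.50 ± 0.16, adjusted p = 0.030), and Prc1, which bundles microtubules of the central spindle (-0.41 ± 0.13, adjusted p = 0.029). Neither was called without replicate 3 or 4 of 0.04 mg/m3 or replicate 2 or 4 of the controls, and 1 of them was called without replicate 3 or 5 of the controls. The median at 0.04 mg/m3 was -0.01, and 3 members had an unadjusted p under 0.05.

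**Figure D1:**
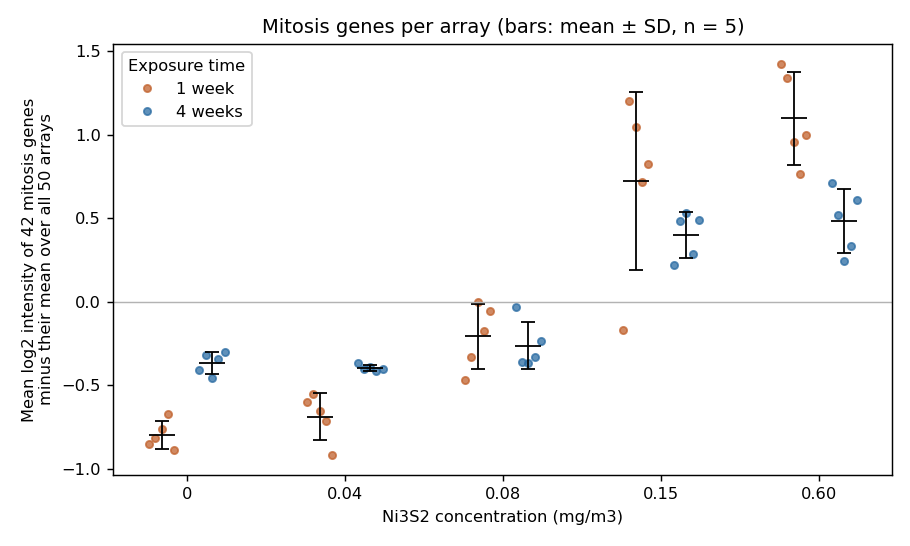
Mean log2 intensity of the 42 mitosis genes on each of the 50 arrays, relative to the mean of these genes over all arrays, against Ni3S2 concentration in mg/m3. Points are arrays, bars the group mean ± SD (n = 5). The 4-week arrays of 0.15 and 0.60 mg/m3 lie between 0.22 and 0.71, above all 4-week arrays of 0.08 mg/m3 and less, and at 1 week replicate 1 of 0.15 mg/m3 lies at -0.17, below the other 4.

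Averaged over the 42 members, the 4-week arrays fell into a low and a high set with no overlap. Relative to the mean over all 50 arrays, controls lay at -0.37 ± 0.06 (SD), 0.04 mg/m3 at -0.39 ± 0.02 and 0.08 mg/m3 at -0.26 ± 0.14. The 0.15 mg/m3 arrays lay at 0.40 ± 0.14 and the 0.60 mg/m3 arrays at 0.48 ± 0.19. The step therefore lay between 0.08 and 0.15 mg/m3. Muscle genes differed across it too, and their part was not tested: the smooth muscle list was at 8.42 to 9.36 at 0.08 mg/m3, 7.74 to 7.90 at 0.15 mg/m3 and 7.81 to 8.04 in controls, and the heart muscle list at 7.74 to 8.84, 6.98 to 7.82 and 6.47 to 7.48. Compared directly, 32 members were higher at 0.15 than at 0.08 mg/m3 (8.05% of all genes), all 42 had a positive change, and the median was 0.63. From 0.15 to 0.60 mg/m3 limma called 0 members, where 1.91% of all genes were called higher and 0.953% lower, with 3 members at an unadjusted p under 0.05 and a median change of 0.10. From 0.04 to 0.08 mg/m3 it also called 0, with 0 members at an unadjusted p under 0.05 and 0.00744% of all genes called.

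The genes with the largest changes after 4 weeks came from several steps of division. Melk, a kinase of dividing cells, was at 4.67, 4.51, 4.26, 4.34 and 4.28 in controls. Its values were 5.90, 6.07, 5.97, 5.58 and 6.04 at 0.15 mg/m3 and 6.48, 6.05, 5.73, 6.00 and 6.10 at 0.60 mg/m3. All 10 exposed arrays lay above the highest control. Melk expression was 2.83 times that of controls at the lower of these concentrations (1.5 ± 0.27, adjusted p = 0.000194 by limma) and 3.16 times at the higher (1.66 ± 0.27, adjusted p = 6.95e-06).

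Chromosome structure genes also rose. Top2a encodes the topoisomerase that untangles sister chromatids. Controls were at 4.86, 5.18, 4.80, 4.84 and 5.24, the 0.15 mg/m3 arrays at 5.99, 6.49, 6.53, 6.17 and 6.34, and the 0.60 mg/m3 arrays at 7.00, 6.82, 6.16, 6.47 and 6.66. Neither exposed group overlapped the controls, and the rises were 2.49-fold (1.32 ± 0.22, adjusted p = 8.69e-05) and 3.11-fold (1.64 ± 0.22, adjusted p = 2.70e-07). Mki67 encodes Ki-67, which coats mitotic chromosomes and is the usual stain for dividing cells. It was at 4.80, 5.43, 4.95, 4.92 and 5.45 in controls, at 5.97, 6.40, 6.49, 5.87 and 6.48 at 0.15 mg/m3, and at 6.63, 6.84, 6.02, 6.52 and 7.19 at 0.60 mg/m3. The lowest exposed array lay above the highest control in both groups, and Mki67 rose 2.19-fold (1.13 ± 0.25, adjusted p = 0.00279) and 2.88-fold (1.53 ± 0.25, adjusted p = 7.30e-06). Smc2, a condensin subunit, had controls that spread from 5.18 to 6.78 and overlapped both exposed groups. It rose at 0.60 mg/m3 (0.79 ± 0.21, adjusted p = 0.00556) and stood at 0.64 ± 0.21 at 0.15 mg/m3 (adjusted p = 0.0859).

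Among the cyclins, Cdk1 and its regulators, 6 of 7 members rose at each of these concentrations. Cdk1 was at 6.63, 6.77, 6.71, 6.99 and 6.90 in controls, at 7.77, 8.17, 8.19, 7.86 and 8.10 at 0.15 mg/m3, and at 8.48, 8.12, 7.86, 7.89 and 8.23 at 0.60 mg/m3. These groups did not overlap, with rises of 1.21 ± 0.20 (adjusted p = 5.19e-05) and 1.31 ± 0.20 (adjusted p = 2.39e-06). Cks2 was at 6.81, 6.70, 6.57, 6.68 and 6.48 in controls, at 7.83, 8.08, 8.05, 7.88 and 8.00 at 0.15 mg/m3 and at 8.52, 8.22, 7.86, 8.00 and 8.36 at 0.60 mg/m3. No exposed array of Cks2 reached down to the controls, and the changes were 1.32 ± 0.21 and 1.55 ± 0.21. The cyclins Ccna2, Ccnb1 and Ccnb2 rose by 0.97, 0.87 and 0.82 at 0.15 mg/m3 and by 1.16, 0.93 and 0.86 at 0.60 mg/m3, and the phosphatase gene Cdkn3 rose by 1.09 and 0.99. The seventh, Foxm1, a transcription factor of late cell-cycle genes, was at 0.14 ± 0.10 and 0.03 ± 0.10. Its 95% interval at 0.60 mg/m3 ran from -0.17 to 0.23, and its arrays overlapped the controls.

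Spindle checkpoint and kinetochore genes rose in part. Bub1, a checkpoint kinase, was at 5.04, 5.24, 5.10, 4.65 and 5.29 in controls, at 5.96, 6.39, 6.53, 6.16 and 6.30 at 0.15 mg/m3 and at 6.55, 6.38, 6.21, 6.49 and 6.69 at 0.60 mg/m3. The groups were apart, and the rises were 1.20 ± 0.22 and 1.40 ± 0.22. The checkpoint genes Bub1b and Ttk rose by 0.98 and 0.90 at 0.60 mg/m3. Mad2l1, which relays the checkpoint signal, was not called at 0.60 mg/m3 on its brightest probe set (0.27 ± 0.12, adjusted p = 0.12), while a dimmer one was at 0.68 ± 0.15 (adjusted p = 0.00117, all probe sets tested). Of the kinetochore genes, Spc25 and Nuf2, which encode subunits of the Ndc80 complex, rose by 1.25 and 1.13 at 0.60 mg/m3. Cenpf, an outer kinetochore protein, was at 0.08 ± 0.15, with a 95% interval from -0.23 to 0.39 and arrays from 7.89 to 8.64 that overlapped the controls' 7.87 to 8.41.

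The genes of the anaphase-promoting complex and its targets rose at both concentrations, 4 of 4. Cdc20, its activator, was at 5.12, 5.49, 5.20, 5.60 and 5.54 in controls, at 6.19, 6.67, 6.65, 6.11 and 6.77 at 0.15 mg/m3, and at 7.07, 6.52, 6.43, 6.41 and 6.55 at 0.60 mg/m3. The exposed arrays all lay above the controls, with changes of 1.09 ± 0.21 and 1.21 ± 0.21. Pttg1 (securin), Ube2c (its ubiquitin-conjugating enzyme) and Cdca3 rose by 1.23, 0.97 and 0.67 at 0.60 mg/m3. Among the mitotic kinases, Plk1 rose by 0.56 and 0.77 and Pbk by 0.79 and 0.72 at 0.15 and 0.60 mg/m3. Aurka, the spindle pole kinase, rose at 0.60 mg/m3 (0.61 ± 0.18, adjusted p = 0.0135) and was at 0.35 ± 0.18 at 0.15 mg/m3. Aurkb, the kinase of the chromosomal passenger complex, was not called in any of the 8 comparisons with controls. The array had 1 probe set for Aurkb, whose mean of 10.78 over all arrays lay above that of 96.3% of genes. Whether so bright a signal is Aurkb mRNA was not tested. At 0.60 mg/m3 Aurkb stood at 0.30 ± 0.12 (adjusted p = 0.0879), with control arrays from 10.14 to 11.08 and exposed arrays from 10.80 to 11.19. Its partners in that complex, Birc5 (survivin) and Cdca8 (borealin), rose by 0.59 and 1.15 at 0.60 mg/m3.

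Spindle motors and cytokinesis genes were divided. Kif11, the motor that pushes spindle poles apart, was at 3.69, 3.68, 3.52, 3.77 and 3.52 in controls, at 4.30, 4.94, 5.11, 4.85 and 4.85 at 0.15 mg/m3, and at 5.00, 5.10, 4.75, 4.74 and 5.03 at 0.60 mg/m3. Its groups did not overlap and it rose by 1.18 ± 0.18 and 1.29 ± 0.18. Kif4a moved the other way: it was at 8.45, 8.89, 8.72, 8.91 and 8.67 in controls and at 8.65, 8.17, 7.95, 8.28 and 7.98 at 0.60 mg/m3. It fell by 0.52 ± 0.16 (adjusted p = 0.0158), although 1 exposed array lay among the controls, and it was at -0.11 ± 0.16 at 0.15 mg/m3. Nusap1, Aspm, Hmmr, Ckap2 and Kif2c rose at 0.60 mg/m3 by 0.96, 1.13, 0.84, 0.74 and 0.59, and Dlgap5 was at 0.33 ± 0.13.

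Ect2 activates the small GTPase RhoA at the site of cleavage. It was at 4.76, 5.56, 5.28, 5.17 and 5.38 in controls, at 6.48, 6.62, 6.84, 6.15 and 6.71 at 0.15 mg/m3, and at 6.93, 6.66, 6.38, 6.51 and 6.91 at 0.60 mg/m3. All exposed arrays lay above the controls and the rises were 1.33 ± 0.25 and 1.45 ± 0.25. Its partner Racgap1 and the motor gene Kif20a rose by 0.90 and 0.95 at 0.60 mg/m3. The other 3 cytokinesis genes were not called at either concentration. At 0.60 mg/m3 Kif23, the partner of Racgap1 in centralspindlin, was at 0.28 ± 0.17, the scaffold gene Anln at 0.37 ± 0.18, and Prc1 at -0.30 ± 0.13 (95% interval -0.57 to -0.04, adjusted p = 0.102). Members that were not called at 0.15 mg/m3 numbered 13, and their changes ran from -0.11 (Kif4a) to 0.65 (Ckap2).

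**Figure D2:**
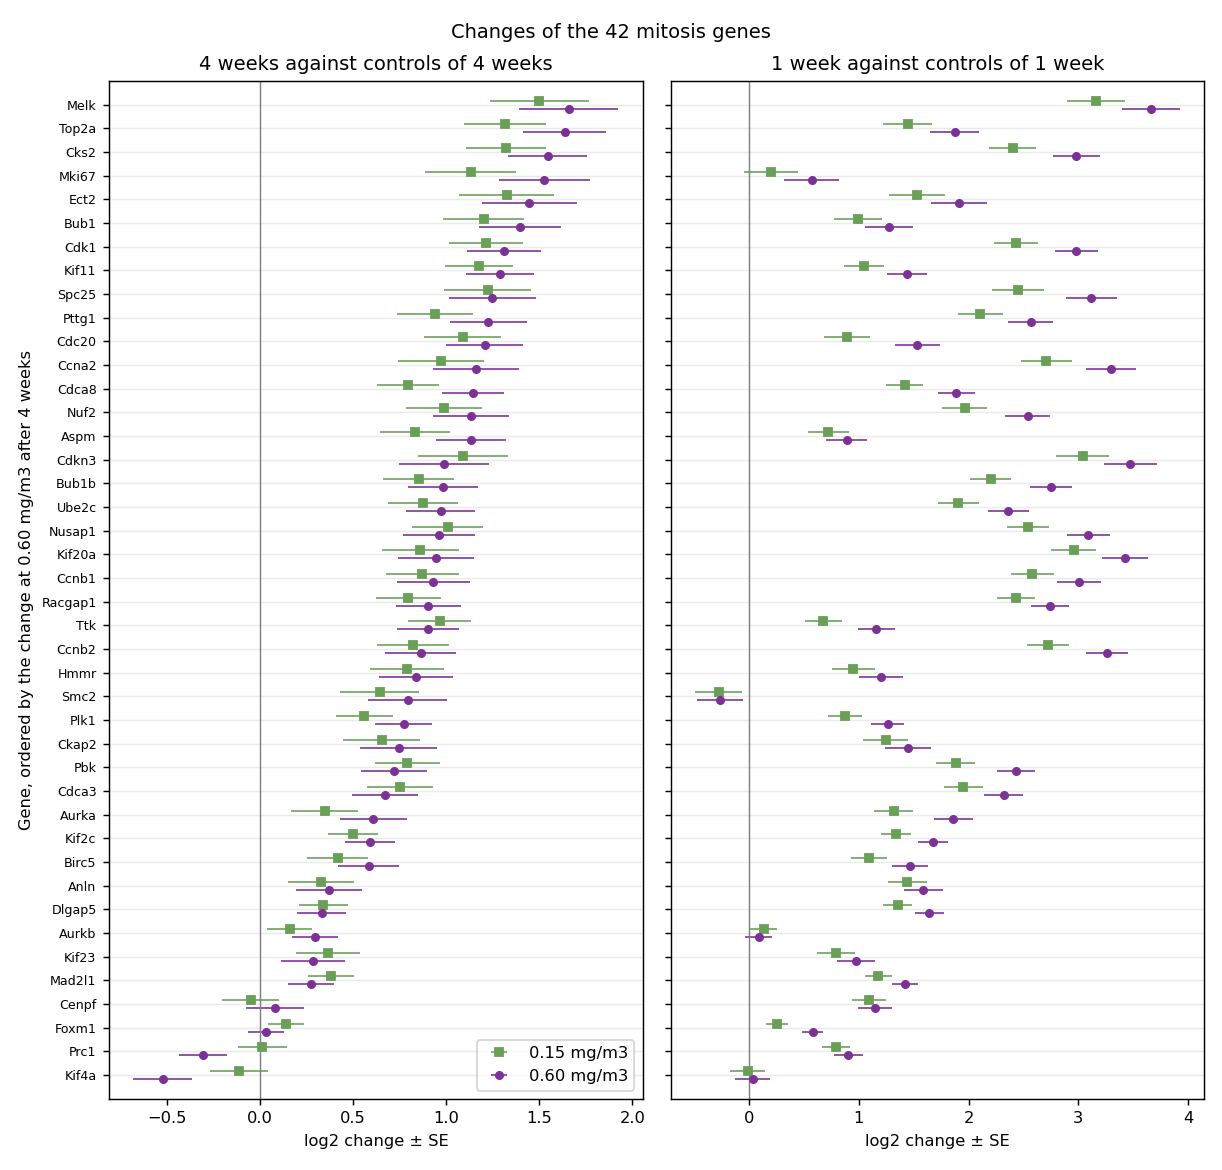
Log2 change ± SE of each of the 42 mitosis genes at 0.15 mg/m3 (squares) and 0.60 mg/m3 (circles) against the controls of the same time, at 4 weeks (left) and 1 week (right), ordered by the change at 0.60 mg/m3 after 4 weeks. The panels differ in the scale of the x axis. Melk has the largest change at 0.60 mg/m3 in both panels, whereas Mki67 and Smc2 are among the lowest at 1 week, at 0.57 and -0.27 for 0.60 mg/m3.

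For 11 members the array had more than 1 probe set. Both probe sets of Ccnb1, Nusap1 and Top2a rose at 0.60 mg/m3 after 4 weeks, by 0.93 and 1.32, by 0.96 and 0.92, and by 1.64 and 1.28. The dimmer probe sets of Kif11, Ttk and Kif2c were at -0.01, 0.08 and 0.08, where the brighter ones rose by 1.29, 0.90 and 0.59. Cdc20 had 5, at 1.21, 0.86, 0.34, 0.16 and 0.09 in order of falling brightness, of which the first 3 were called. At 0.15 mg/m3 after 4 weeks both probe sets of Ccnb1, Nusap1 and Top2a were again called. There the dimmer ones of Racgap1 and Hmmr, at 0.25 and 0.22, were not called, where the brighter ones rose by 0.80 and 0.79. The dimmer ones of Kif11, Ttk and Kif2c were not called either, and of those of Cdc20 only the brightest was. Some of the dimmer probe sets thus showed much smaller changes than the one used.

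After 1 week, mitosis genes also rose at 0.08 mg/m3 and above, in comparisons where up to 67.4% of all genes were called. Against 1-week controls, 39 members were higher at 0.60 mg/m3, 38 at 0.15 mg/m3, 26 at 0.08 mg/m3 and 8 at 0.04 mg/m3. The share of all genes called higher was 32.8%, 33.8%, 25.1% and 15.1% in the same order, and 65.1%, 67.4%, 48.6% and 26.9% of all genes were called in either direction. The count of 8 members at 0.04 mg/m3 was near the share of all genes called higher there. Median changes of the members were 1.77, 1.38, 0.52 and 0.07, and those of all genes lay between -0.03 and 0.06. Members called lower were Smc2 at 0.08 mg/m3 (-0.55 ± 0.21) and Anln at 0.04 mg/m3 (-0.52 ± 0.18). The 1-week controls and 0.04 mg/m3 arrays lay far from the 2 highest concentrations on the first principal component of all other genes, which held 63.9% of the variance. They lay at -57.7 ± 12.2 (SD) and -76.2 ± 9.73, the 1-week 0.15 and 0.60 mg/m3 arrays at 8.27 ± 6.74 and 2.08 ± 3.74, and the 1-week 0.08 mg/m3 arrays at -27.0 ± 26.4, with replicate 1 inside the controls' range of -75.0 to -43.2. How much of the 1-week changes this difference carries was not tested beyond the values that follow.

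When the 1-week exposed groups were set against the controls of 4 weeks instead, 34 members were higher at 0.60 mg/m3, 31 at 0.15, 12 at 0.08 and 10 at 0.04 mg/m3, where 33.3%, 29%, 38.4% and 45.6% of all genes were higher. Lower than the 4-week controls were 2, 2, 7 and 23 members in the same order, where 16.1%, 13.6%, 26.3% and 36% of all genes were lower. The medians of the members were 1.67, 1.24, 0.20 and -0.53. With a covariate for the main axis along which replicates of the 1-week controls and of 0.04 mg/m3 spread, 36, 34, 26 and 6 members were higher and 0, 1, 1 and 0 lower. All genes called higher in that fit made up 25.2%, 23.9%, 21.8% and 13.1%, and those called lower 18.7%, 18%, 15.6% and 10%. Between neighbouring concentrations, 35 members were higher at 0.15 than at 0.08 mg/m3 (23.1% of all genes) and 22 at 0.08 than at 0.04 mg/m3 (29.3%), where Foxm1 was lower (-0.23 ± 0.10). From 0.15 to 0.60 mg/m3 limma called 0 members (0.0149% of all genes in either direction). Of the 42 changes 41 were positive and 24 had an unadjusted p under 0.05, with a median of 0.39. These changes share the same arrays and are not separate observations. Among the arrays was replicate 1 of 0.15 mg/m3, with a members' mean of -0.17 against 0.72 to 1.20 in the rest of its group.

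**Figure D3:**
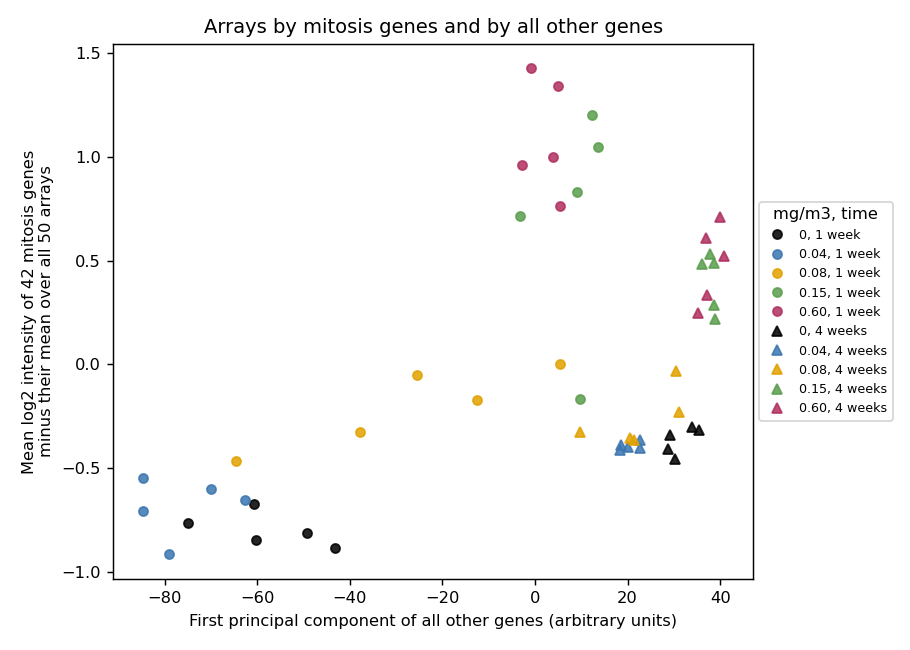
Mean log2 intensity of the 42 mitosis genes per array, relative to their mean over all arrays, against the array's position on the first principal component of all other genes (arbitrary units). Colours are concentrations in mg/m3, circles 1 week and triangles 4 weeks. Arrays of 0.15 and 0.60 mg/m3 lie above 0 at both times, except 1-week replicate 1 of 0.15 mg/m3 at -0.17, at component positions from -3.32 to 13.6 at 1 week and from 35.2 to 40.8 at 4 weeks, while 4-week controls at 28.7 to 35.5 lie low.

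The 0.08 mg/m3 arrays of 1 week were spread along the component. Replicates 1 to 5 lay at -64.6, -37.9, 5.46, -12.6 and -25.5, and their members' means at -0.47, -0.33, 0.00, -0.17 and -0.05, so that the lowest and the highest array were the same on both measures. Replicate 1 of 0.15 mg/m3 lay at 9.77 on the component and -0.17 for the members, where the other 4 arrays of its group were at 0.72 to 1.20 for the members. Without it, the number of members higher at 0.15 mg/m3 was 38, as with it.

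**Figure D4:**
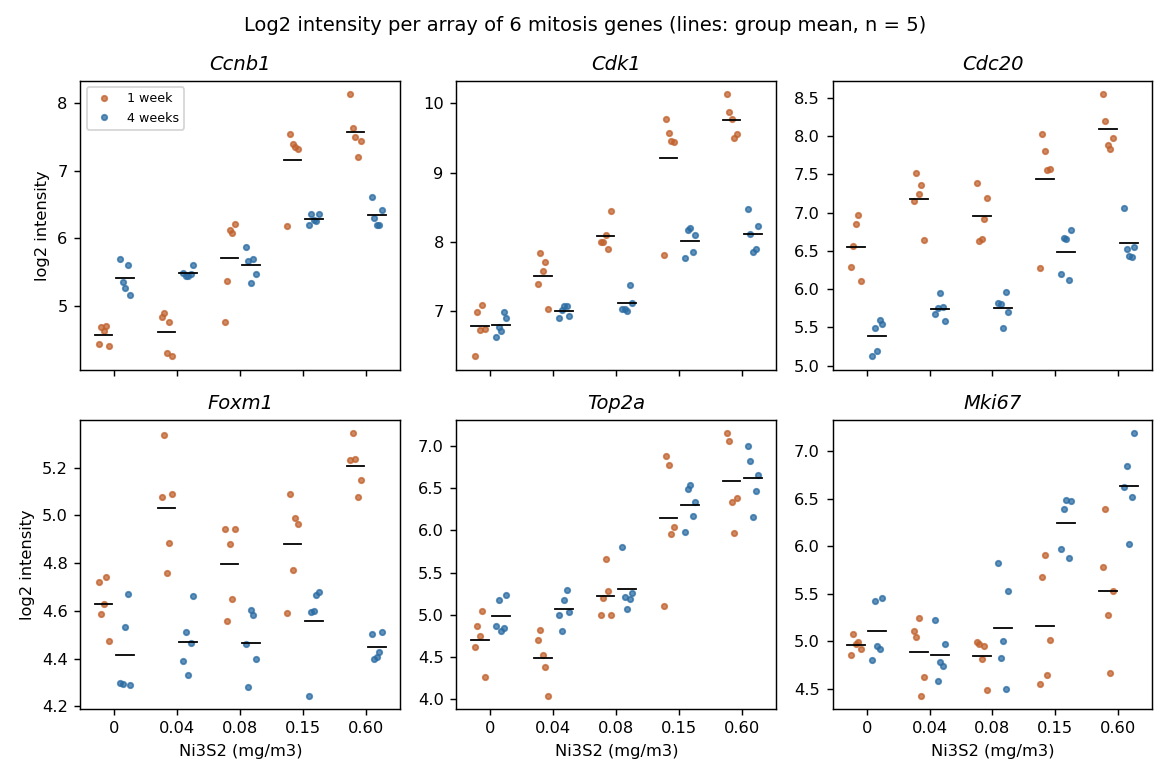
Log2 intensity on each array of Ccnb1, Cdk1, Cdc20, Foxm1, Top2a and Mki67 against Ni3S2 concentration in mg/m3, at 1 week and 4 weeks. Points are arrays and lines group means (n = 5). Ccnb1 and Cdk1 are highest at 0.60 mg/m3 after 1 week (means 7.58 and 9.76), Top2a has means of 6.58 and 6.62 at that concentration, and Mki67 is highest after 4 weeks (6.64).

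The largest rises at 1 week were in the same 8 members at 0.15 and 0.60 mg/m3: Melk, Cdkn3, Kif20a, Ccna2, Ccnb2, Spc25, Nusap1 and Ccnb1. Melk was at 3.57, 3.77, 3.62, 3.83 and 3.81 in controls, at 5.36, 7.46, 7.27, 7.13 and 7.20 at 0.15 mg/m3 and at 7.90, 7.61, 7.26, 6.96 and 7.19 at 0.60 mg/m3. Its rises were 8.96-fold (3.16 ± 0.27, adjusted p = 7.07e-14) and 12.7-fold (3.66 ± 0.27, adjusted p = 1.52e-15). Even the low array of 0.15 mg/m3 lay above every control.

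Cdkn3 was at 4.89, 4.93, 5.40, 5.25 and 4.72 in controls, at 6.99, 8.51, 8.29, 8.28 and 8.32 at 0.15 mg/m3 and at 8.75, 8.60, 8.52, 8.25 and 8.43 at 0.60 mg/m3. Its rises were 3.04 ± 0.24 and 3.47 ± 0.24, with no overlap. Kif20a was at 4.21, 4.22, 4.27, 4.52 and 4.10 in controls, at 6.20, 7.72, 7.57, 7.24 and 7.38 at 0.15 mg/m3 and at 8.02, 7.81, 7.39, 7.47 and 7.76 at 0.60 mg/m3. This motor gene rose by 2.96 ± 0.21 and 3.43 ± 0.21, also with no overlap. Replicate 1 of 0.15 mg/m3 was again the lowest of its group in both genes.

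The 3 cyclins showed the same order of groups. Ccna2 was at 3.89, 3.46, 4.06, 4.02 and 3.93 in controls, at 5.29, 7.22, 6.78, 6.76 and 6.85 at 0.15 mg/m3 and at 7.31, 7.26, 7.13, 6.95 and 7.19 at 0.60 mg/m3. Ccnb2 was at 5.36, 5.44, 5.40, 5.62 and 5.39 in controls, at 6.98, 8.66, 8.48, 8.29 and 8.41 at 0.15 mg/m3 and at 9.01, 8.75, 8.56, 8.47 and 8.72 at 0.60 mg/m3. Ccnb1 was at 4.44, 4.69, 4.63, 4.70 and 4.41 in controls, at 6.18, 7.54, 7.40, 7.35 and 7.32 at 0.15 mg/m3 and at 8.14, 7.63, 7.50, 7.21 and 7.44 at 0.60 mg/m3. The exposed arrays of all 3 cyclins lay above the controls. At 0.60 mg/m3 they rose by 3.30 ± 0.23, 3.26 ± 0.19 and 3.01 ± 0.20.

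Spc25 and Nusap1, a kinetochore and a spindle protein, followed. In controls Spc25 was at 4.71, 4.23, 4.77, 4.64 and 4.30, and at 0.60 mg/m3 at 7.97, 7.92, 7.61, 7.25 and 7.48. In controls Nusap1 was at 4.90, 4.15, 4.70, 4.70 and 4.25, and at 0.60 mg/m3 at 8.06, 7.85, 7.55, 7.22 and 7.48. Neither gene overlapped the controls, and the rises were 3.12 ± 0.23 and 3.09 ± 0.19. At 0.15 mg/m3 they rose by 2.45 and 2.55.

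At 0.08 mg/m3 the largest 1-week rises were those of Cdkn3 (1.57 ± 0.24), Ccnb2 (1.45 ± 0.19) and Kif20a (1.42 ± 0.21). Ccnb2, at 6.33, 6.75, 7.19, 6.81 and 7.39, lay above all controls, and 19 members did so, against 8.89% of all genes. Against 4-week controls the change was 0.25 for Kif20a and 0.30 for Cdkn3, and neither was called. At 0.04 mg/m3 the members called higher were Ube2c (0.77 ± 0.19), Cdk1 (0.73 ± 0.20), Cdc20 (0.63), Aurka (0.62), Cdca3 (0.59), Cdca8 (0.48), Plk1 (0.45) and Foxm1 (0.40). Of these 8, already picked as called higher, 5 had all 5 arrays above the controls. The share over all genes, called or not, was 6.69%, so these figures are not like for like. The count of 8 fell to 5 without replicate 2 or 4 of this group or replicate 1 or 5 of the controls.

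Some members were not called, or only just, at 1 week. Aurkb and Kif4a were at 0.09 ± 0.12 and 0.03 ± 0.16 at 0.60 mg/m3, and Smc2 was at -0.27 ± 0.21, from 5.17 to 6.24 against 5.75 to 5.98 in controls. Mki67 was at 4.86, 5.07, 4.97, 4.99 and 4.91 in controls and at 5.78, 6.39, 5.27, 4.67 and 5.53 at 0.60 mg/m3. Its exposed arrays spread on both sides of the controls, and it rose by 0.57 ± 0.25 (adjusted p = 0.0404). At 0.15 mg/m3 it was at 0.20 ± 0.25 (adjusted p = 0.494), from 4.55 to 5.91.

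The levels of 6 genes over all 10 groups show how the members differed between the times. Ccnb1 rose in steps at 1 week, from 4.58 ± 0.14 (SD) in controls and 4.61 ± 0.31 at 0.04 mg/m3 to 5.71 ± 0.63 at 0.08 mg/m3, 7.16 ± 0.55 at 0.15 mg/m3 and 7.58 ± 0.34 at 0.60 mg/m3. At 4 weeks it was at 5.42 ± 0.22, 5.49 ± 0.07, 5.61 ± 0.21, 6.29 ± 0.07 and 6.35 ± 0.18 in the same order. Its highest neighbours, 0.15 and 0.60 mg/m3, were not called different at either time. Cdk1 was at 6.78 ± 0.29, 7.51 ± 0.31, 8.09 ± 0.21, 9.21 ± 0.79 and 9.76 ± 0.26 at 1 week and at 6.80 ± 0.14, 7.00 ± 0.08, 7.11 ± 0.16, 8.02 ± 0.19 and 8.11 ± 0.25 at 4 weeks. The 2 control groups of Cdk1 differed by 0.02 ± 0.20, with a 95% interval from -0.38 to 0.42.

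Top2a was at 4.71 ± 0.30, 4.50 ± 0.30, 5.23 ± 0.28, 6.15 ± 0.72 and 6.58 ± 0.50 at 1 week and at 4.99 ± 0.21, 5.06 ± 0.18, 5.31 ± 0.29, 6.30 ± 0.23 and 6.62 ± 0.32 at 4 weeks. Mki67 was at 4.96 ± 0.08, 4.89 ± 0.35, 4.84 ± 0.21, 5.16 ± 0.61 and 5.53 ± 0.64 at 1 week and at 5.11 ± 0.30, 4.86 ± 0.25, 5.14 ± 0.54, 6.24 ± 0.30 and 6.64 ± 0.43 at 4 weeks. Of these genes, only Mki67 had both of its highest group means at 4 weeks. Cdc20 was at 6.55 ± 0.37, 7.18 ± 0.33, 6.96 ± 0.33, 7.44 ± 0.68 and 8.09 ± 0.29 at 1 week and at 5.39 ± 0.22, 5.74 ± 0.14, 5.76 ± 0.17, 6.48 ± 0.30 and 6.60 ± 0.27 at 4 weeks. Every 1-week group mean of Cdc20 but that of the controls lay above every 4-week group mean. Foxm1 stayed between 4.42 and 5.21 in its group means, with the highest at 0.60 mg/m3 and the next at 0.04 mg/m3, both at 1 week.

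**Figure D5:**
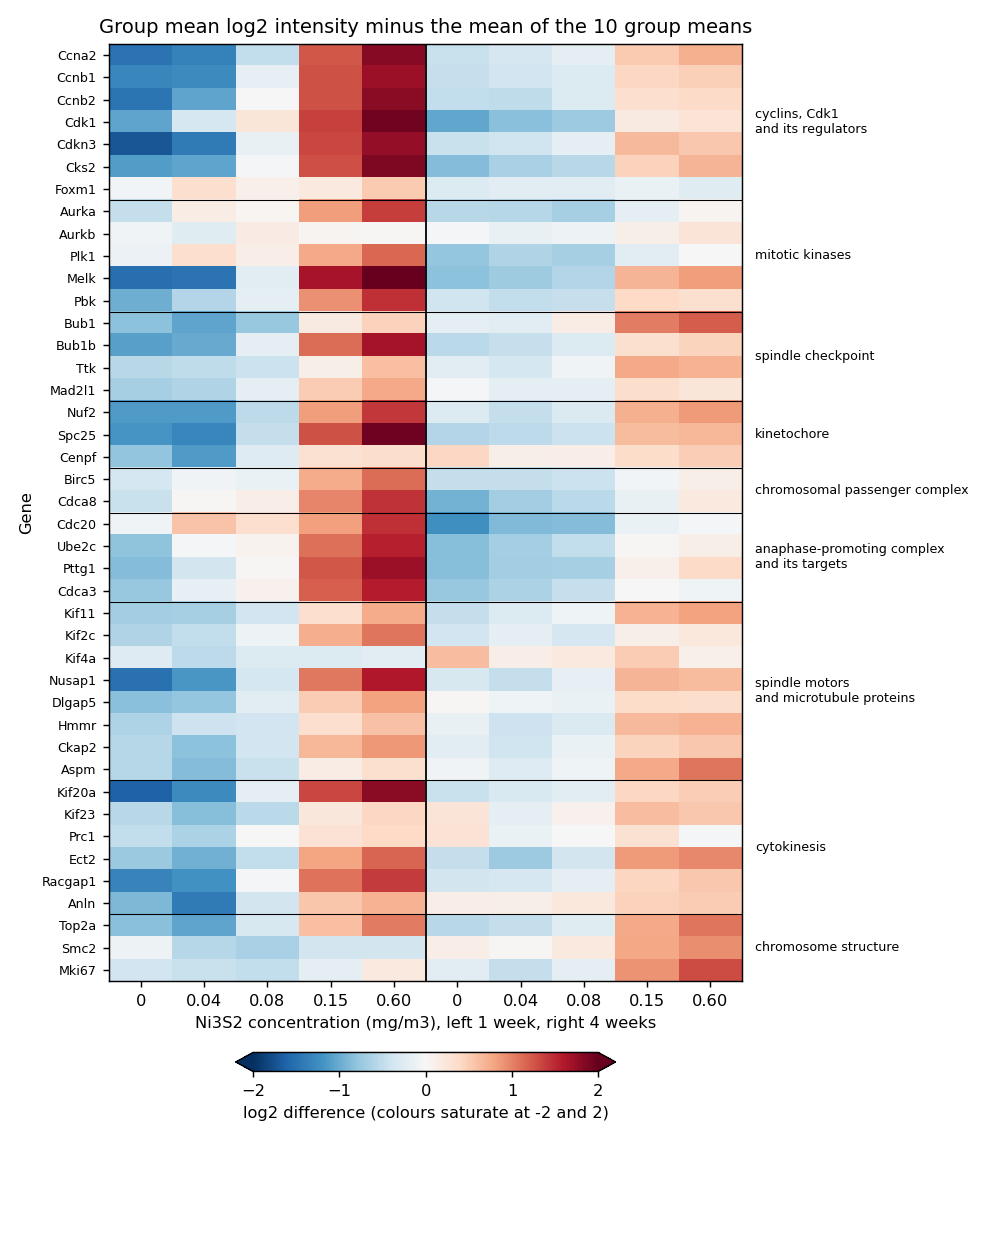
Group mean log2 intensity of each of the 42 measured mitosis genes minus the mean of its 10 group means, by Ni3S2 concentration in mg/m3, with 1 week left and 4 weeks right and genes ordered by role. The highest group mean of 30 members is at 0.60 mg/m3 after 1 week and that of 9 members, among them Mki67, Top2a and Smc2, at 0.60 mg/m3 after 4 weeks.

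In unexposed lung, 35.2% of all genes were higher and 38.2% lower in the 4-week than in the 1-week controls (73.5% in either direction). There, 22 members were higher and 4 lower. Counted in either direction, the members were called less often than all genes, though more often higher. Cdkn3 (1.26 ± 0.24), Cenpf (1.21 ± 0.15) and Kif20a (1.17 ± 0.21) were higher at 4 weeks by the most. The 4 lower members were Cdc20 (-1.16 ± 0.21), Plk1 (-0.66 ± 0.15), Cdca8 (-0.50 ± 0.17) and Foxm1 (-0.21 ± 0.10). Age, time in the chamber and the shift on the first component cannot be told apart in this comparison.

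The interaction term is the change against controls at 4 weeks minus that at 1 week. It was called negative for 30 members at 0.60 mg/m3, for 26 at 0.15 mg/m3 and for 18 at 0.08 mg/m3. A negative term can be a smaller rise or a fall at 4 weeks, the latter for Kif4a at 0.60 mg/m3. The shares of all genes called lower in these terms were 29%, 29.4% and 23%. The largest differences at 0.60 mg/m3 were in Cdkn3 (-2.48 ± 0.34), Kif20a (-2.48 ± 0.29) and Ccnb2 (-2.40 ± 0.27). Only Smc2 (1.06 ± 0.30, adjusted p = 0.00235) and Mki67 (0.96 ± 0.35, adjusted p = 0.0168) had a term called positive at 0.60 mg/m3, where 27.7% of all genes did. At 0.15 mg/m3 it was again these 2 genes, at 0.92 ± 0.30 and 0.93 ± 0.35. At 0.04 mg/m3 limma called 0 members, with 4 at an unadjusted p under 0.05 (12% of all genes in either direction). These terms include the shift between the control groups.

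Levels at 4 weeks and 1 week were also compared directly at 0.60 mg/m3, without controls. Age, time in the chamber and the shift on the first component are part of such a difference. On that component the groups lay at 38.0 and 2.08, and 53.8% of all genes were called. By this comparison, added after the data had been seen, 27 members were lower at 4 weeks (37.2% of all genes) and 4 were higher (16.5%), and the median of all genes was -0.13. Cdk1 and Cdca3 were lower by the most (-1.65 ± 0.20 and -1.65 ± 0.18), followed by Cdc20 (-1.49 ± 0.21). Cdc20 was also lower in the 4-week than in the 1-week controls, and its interaction term at 0.60 mg/m3 was not called. The 4 higher were Smc2 (1.29 ± 0.21), Mki67 (1.11 ± 0.25), Bub1 (0.75 ± 0.22) and Aspm (0.75 ± 0.19). Top2a and Kif11 were not called, at 0.04 ± 0.22 (95% interval -0.41 to 0.49) and 0.08 ± 0.18 (-0.29 to 0.45). Smc2 was at 5.50, 6.24, 5.17, 5.36 and 5.72 at 1 week and at 6.89, 7.18, 6.47, 6.84 and 7.06 at 4 weeks, with no overlap. At 0.15 mg/m3, 22 were lower (34.4%) and 6 higher (14.1%), and the latter included the same 4 genes with Ttk and Kif4a. At 0.08 mg/m3, 11 were lower (36.1%) and 6 higher (24.8%). At 0.04 mg/m3 the larger number was higher at 4 weeks, with 23 higher (36%) and 9 lower (44.4%), among the latter Cdk1 and Cdc20.

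Within groups the members varied together from array to array, as a description over values less each group's mean. The median over members of the mean correlation with the other members was 0.52 over 50 arrays, 0.59 over the 25 of 1 week and 0.37 over the 25 of 4 weeks. Spc25, Top2a and Nusap1 were at 0.63, and Aurkb (0.15), Kif4a (0.17), Smc2 (0.22) and Foxm1 (0.28) were the lowest over 50 arrays. Over 50 arrays, the 5 other genes with the highest mean correlation with the members were Plk4 (0.61), Kif22 (0.60), Mis18a (0.60), Ube2t (0.60) and Ska1 (0.59). Plk4 duplicates centrioles, Kif22 is a chromosome motor, Mis18a a centromere protein and Ska1 a kinetochore protein. Other genes led within each time. Over the 25 arrays of 4 weeks they were E2f8 (0.46), Rps6ka6 (0.46), Coq4 (0.42), Ccne2 (0.42) and Kif22 (0.42). Over the 25 of 1 week they were Tnn (0.68), Plk4 (0.67), Kif22 (0.67), Mis18a (0.67) and Spag5 (0.66). The points share arrays, and with them the RNA input and dissection of each sample. Replicate 1 of 0.15 mg/m3 at 1 week had a members' mean of -0.17 against 0.72 to 1.20 in the rest of its group. The SD of the members' mean was 0.53 in that group, and the next largest was 0.28, at 0.60 mg/m3 and 1 week. The values over 50 arrays and over the 25 of 1 week include this array, and those of 4 weeks do not. Its part in these correlations was not tested.

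Genes of the same pathway outside the list were called mostly in the same direction. The shares of all genes to read these and the marker counts against are 9.47% higher and 7.9% lower at 0.60 mg/m3 and 1.92% and 1.58% at 0.15 mg/m3 after 4 weeks, and 32.8% and 32.3% at 0.60 mg/m3 after 1 week. Of 50 other genes of G2 phase and mitosis, 28 rose and 1 fell at 0.60 mg/m3 after 4 weeks, and 12 rose and 0 fell at 0.15 mg/m3, with medians of 0.38 and 0.28. They included Plk4 (1.98 ± 0.30 at 0.60 mg/m3), Kif22 (1.21 ± 0.19), Cenpk (1.20 ± 0.21), Shcbp1 (1.04), Depdc1 (1.02) and Cenpw (1.01). Of 45 genes of the G1/S step and DNA replication, 22 rose and 3 fell at 0.60 mg/m3, and 7 rose and 2 fell at 0.15 mg/m3. Rrm2, which makes deoxynucleotides, rose by 1.24 ± 0.22, Ccne2, a cyclin of S-phase entry, by 1.10 ± 0.18, and the replication helicase subunit Mcm5 by 0.87 ± 0.17 at 0.60 mg/m3. Gmnn, which blocks relicensing of DNA, fell by 0.63 ± 0.15 at 0.15 mg/m3. At 1 week and 0.60 mg/m3 the counts were 39 higher and 2 lower of 50, and 41 higher and 1 lower of 45, led by Knstrn (2.71 ± 0.20) and Rrm2 (3.83 ± 0.22).

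Of the 7 cyclins and kinases of growth phase, none was called higher at either concentration after 4 weeks, 3 had an unadjusted p under 0.05 at 0.60 mg/m3, and Ccnd1 (-0.47 ± 0.07) and Ccnd2 (-0.41 ± 0.10), which encode D-type cyclins, fell there. Among 17 cell cycle inhibitors, 2 rose and 4 fell at 0.60 mg/m3, the former near the share over all genes. Cdkn1c (p57) fell by 1.10 ± 0.12 and Cdkn1a (p21) by 0.53 ± 0.15. Of 15 regulators of mitosis gene transcription, 2 rose and 1 fell, also near that share: E2f8 (0.66 ± 0.20) and the MuvB subunit Lin9 (0.41 ± 0.11) rose and Tfdp2 fell (-0.37 ± 0.11) at 0.60 mg/m3 after 4 weeks. At 1 week and 0.60 mg/m3, 11 of the 15 rose and 1 fell, among them E2f8 (1.98 ± 0.20) and Lin52 (1.11 ± 0.13).

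Markers of several cell types also differed from controls at 4 weeks, some of them at concentrations where no member was called higher. Their part in the result was not tested. Of 14 monocyte and recruited macrophage genes, 9 rose at 0.60 mg/m3 after 4 weeks and 2 at 0.15 mg/m3. Their mean level was 7.59 to 7.88 in controls, 7.96 to 8.16 at 0.15 mg/m3 and 8.47 to 8.85 at 0.60 mg/m3, led by Spp1 (4.56 ± 0.30). Of 9 neutrophil genes, 5 rose and 1 fell at 0.60 mg/m3 and 2 rose at 0.15 mg/m3, with mean levels of 5.30 to 5.93 in controls, 5.93 to 6.26 at 0.15 and 5.99 to 6.36 at 0.60 mg/m3.

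Of 13 T cell genes, 7 rose at 0.60 mg/m3 and 1 at 0.15 mg/m3, and their mean level was 5.84 to 6.17 in controls, 5.92 to 6.48 at 0.15 mg/m3 and 6.26 to 6.95 at 0.60 mg/m3. At 0.04 mg/m3 for 4 weeks it was 6.66 to 6.92, and that of 7 B cell genes was 7.01 to 7.41 against 5.82 to 6.18 in controls. Of 10 NK and cytotoxic cell genes, 8 fell and 1 rose at 0.60 mg/m3. Their mean level was 6.54 to 7.22 in controls, 6.00 to 6.69 at 0.08, 6.38 to 6.66 at 0.15 and 6.26 to 6.53 at 0.60 mg/m3. Of 13 alveolar type 2 cell genes, 6 rose and 2 fell at 0.60 mg/m3, with mean levels of 11.63 to 11.87 against 11.45 to 11.61, and at 0.15 mg/m3 1 fell and none rose. Of 7 club cell genes, 4 fell at 0.60 mg/m3 and 3 at 0.15 mg/m3, among them Cyp2f4 (-1.25 ± 0.11 and -0.89 ± 0.11). Of 9 goblet cell genes 5 rose at 0.60 mg/m3 (7.13 to 7.44, against 6.28 to 6.99 in controls), of 5 dendritic cell genes 3 (6.88 to 7.25, against 6.42 to 6.67) and of 6 plasma cell genes 3 (8.16 to 8.72, against 7.72 to 8.13). The dendritic cell list was already at 6.72 to 7.01 at 0.04 mg/m3 and at 6.75 to 7.14 at 0.08 mg/m3 after 4 weeks.

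Markers also moved at 1 week, and their part was not tested there either. At 0.60 mg/m3, 7 of 14 monocyte and recruited macrophage genes rose and 1 fell, with a mean level of 8.17 against 7.51 in controls. Of 9 neutrophil genes 6 rose (5.68 to 6.19, against 4.74 to 5.27), and of 9 goblet cell genes 6 rose (7.48 to 7.88, against 6.80 to 7.20). Of 10 smooth muscle genes 8 fell (7.89 to 8.51, against 8.89 to 9.61). Of 13 T cell genes 5 fell (6.27 to 6.62, against 6.34 to 7.31), which was near the share of all genes called lower. Of 7 B cell genes 4 fell (6.02 to 6.48, against 6.14 to 7.73), and of 7 club cell genes 4 fell. Of 5 dendritic cell genes 4 rose (6.85 to 7.06, against 6.30 to 6.62), and of 11 heart muscle genes 7 rose (6.88 to 7.61, against 4.69 to 7.42). Which cells carried the mitosis transcripts was not measured.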

How the data were processed

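RNA was measured on 50 Affymetrix rat expression arrays, 5 per group, each a labelled replicate whose number limits the precision. The deposited values are log2 intensities, which the authors made with RMA and Partek, per the submitters' processing notes. Tool versions were not given in the sources used here. Per the labels' protocols, 50 to 150 ng of RNA was labelled, depending on yield. The deposited table holds 31042 probe sets, and 0 of its columns belonged to samples outside the series. Probe sets were named from the platform's gene table: 19063 had 1 symbol, 572 several and 11407 none. Only those with 1 symbol were used.

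Limma 3.58.1 in R 4.3.3 was run on the deposited values with a mean for each of 10 groups, which left 40 residual degrees of freedom, and eBayes. Tests were two-sided, with Benjamini-Hochberg adjustment over 13438 genes within a comparison and a threshold of 0.05. The calculation was tested on simulated data. The members and lists were chosen with earlier results of these data known. Named were all members, with every array's value for the called members of largest change whose groups did not overlap (up to 8 per comparison), 6 fixed genes in all groups, up to 6 called genes per pathway list and up to 4 per marker list. Alternatives were array weights, a filter on the dimmest 25% of genes, other normalization, probe sets and variance prior, a replicate block, a 1.5-fold minimum, fewer arrays in the fit, each array left out, and other handling of the 1-week controls. Replicate numbers recur in every group, but of 225 same-numbered pairs of arrays only 62 had deviations from the group means that correlated above 0.1 (median -0.00706), so the numbers were not taken as pairs. Promoter windows came from RefSeq (GRCr8), and Aurkb, Ccna2, Foxm1, Pbk, Racgap1, Tpx2 and Ube2c had no entry.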

Additional observations from a re-analysis of the deposited data

Results flagged for a closer look

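Among 6 genes examined in all 10 groups, 7 values lay far from the other 4 of their gene and group by Dixon's test. Chance would do this in about 1 of 20 such sets, and several of the 7 values came from the same array. Replicate 1 of 0.15 mg/m3 at 1 week did so for Ccnb1 (6.18, others 7.32 to 7.54), Cdk1 (7.82, others 9.44 to 9.77) and Cdc20 (6.27, others 7.55 to 8.03). The remaining cases were Ccnb1 in replicate 5 of 0.04 mg/m3 at 4 weeks (5.61, others 5.44 to 5.48), Cdc20 in replicate 1 of 0.60 mg/m3 at 4 weeks (7.07, others 6.41 to 6.55), Top2a in replicate 1 of 0.08 mg/m3 at 4 weeks (5.81, others 5.06 to 5.26) and Foxm1 in replicate 1 of 0.15 mg/m3 at 4 weeks (4.24, others 4.59 to 4.68).

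The change against controls differed between the exposure times. The change at 4 weeks minus that at 1 week was called negative for 18 mitosis genes at 0.08 mg/m3, 26 at 0.15 mg/m3 and 30 at 0.60 mg/m3. It was called positive for 2 at 0.15 mg/m3 and 2 at 0.60 mg/m3. For Ccnb1 the difference, 4 weeks minus 1 week, was -0.94, -1.71 and -2.08 at 0.08 mg/m3, 0.15 mg/m3 and 0.60 mg/m3, and for Cdk1 it was -1.0, -1.22 and -1.67. For Mki67 it was 0.93 at 0.15 mg/m3 and 0.96 at 0.60 mg/m3, and for Foxm1 -0.55 at 0.60 mg/m3.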

How the results depend on the processing

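The counts of members at 0.15 and 0.60 mg/m3 stayed within 1.5 times of those reported under all alternatives run, and without single arrays they ran from 26 to 30 and from 32 to 34 at 4 weeks. Counts near 0 moved. Members higher at 0.04 mg/m3 after 1 week numbered 5 with a 1.5-fold minimum, 2 with only the 25 arrays of that time, and 5 to 9 without single arrays. Members higher at 0.08 mg/m3 after 4 weeks numbered 1 with array weights, 1 with only the arrays compared and 3 with the 25 arrays of that time, and the last setting gave 1 for 0.60 against 0.15 mg/m3. Members lower at 0.04 mg/m3 after 4 weeks numbered 4 with array weights, 4 with only the arrays compared, 0 with the 1.5-fold minimum and 0 to 3 without single arrays. Members with a negative interaction term at 0.04 mg/m3 numbered 3 with array weights, 3 with centred arrays and 3 with only the arrays compared. They numbered 2 with quantile normalization and 0 to 1 without single arrays. At 0.08 mg/m3, members higher at 4 weeks than at 1 week numbered 6, but 3 with the 1.5-fold minimum and 3 with only the arrays compared, and 4 to 8 without single arrays.

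Setting the 1-week groups against the controls of 4 weeks changed the most directions. Members higher at 0.08 mg/m3 after 1 week then numbered 12. At 0.08 mg/m3 the change turned negative for Anln (-0.49), Ccna2 (-0.042), Cenpf (-0.68), Dlgap5 (-0.25), Mad2l1 (-0.17), Nuf2 (-0.24), Nusap1 (-0.031) and Prc1 (-0.29). It also did so at 0.15 mg/m3 for Cenpf (-0.11) and Kif23 (-0.024), and at 0.60 mg/m3 for Cenpf (-0.060). The cause was not tested. The replicate block gave 29 and 33 members higher at 0.15 and 0.60 mg/m3 after 4 weeks. It gave 29 for 0.15 against 0.08 mg/m3 at 4 weeks and 15 with a negative interaction term at 0.08 mg/m3. Only 10 of 50 arrays correlated best with an array of their own number. Signal over background was not among the deposited values, and 5 arrays per group limit the precision.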
